A study of Mus musculus with 10 samples.

Results

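The tubule injury genes are 10 genes that kidney tubule cells are known to express during damage, dedifferentiation and repair, and they were selected by symbol: Havcr1, Lcn2, Spp1, Clu, Vim, Sox9, Cd44, Krt8, Krt18 and Krt19. All 10 were among the 13299 genes of the deposited table, and all 10 were among the 13236 genes that passed the filter on low values. Kidneys of 5 Rragc S74N/+ mice and 5 Rragc +/+ mice, all aged 1.5 years, were compared by sequencing the 3′ ends of mRNA. Whether the pieces of tissue differed between mice was not stated. Rragc encodes RagC, a small GTPase through which amino acid supply switches on mTORC1, a kinase complex that drives growth, and S74N is an activating substitution. The Rragc S74N/+ mice carried it on a single endogenous allele in every cell of the body, after editing of blastocysts with Cas9, and no other allele or agent was given for either group. The labels gave neither sex nor litter, so neither could be taken into account, and replicates 1 to 5 of each genotype were numbered by order of deposit. The p-values set the genotype difference against the spread between these mice only. It was asked whether the genes differed between the genotypes and whether the same kidneys were high in all of them.

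After injury, surviving cells of the tubule lose part of their transport machinery, spread and divide, and then either regain the mature state or remain in a state with inflammatory and adhesive features. Havcr1 and Lcn2 encode proteins of the injured tubule that are measured in urine as markers of damage. Spp1 and Clu encode secreted proteins that the healthy distal nephron also makes. Vim, Sox9 and Cd44 mark tubule cells that have stepped back from the mature state, and Krt8, Krt18 and Krt19 encode keratins of simple epithelia, which the collecting duct and the lining of the renal pelvis also hold. Many of these genes have further sources in kidney tissue, since leukocytes and fibroblasts carry Vim and Cd44 and neutrophils carry Lcn2. In whole tissue a change in the number of cells of a type and a change in RNA per cell cannot be told apart.

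Libraries held 4488493 to 5797251 reads, as recovered from the steps between the deposited values, and each pair of libraries of a genotype differed by more than sampling noise. Over all genes Rragc S74N/+ replicate 1 stood apart from the other mutant kidneys, at 26.6 to 31.7 for the chi-square per degree of freedom against each of them, where the other mutant pairs had 4.20 to 8.49 and wild-type pairs 5.50 to 12.9. Levels are given as normalized counts, meaning reads divided by a size factor of the library, and because each transcript gives its tags at the 3′ end they do not scale with transcript length. Kidney identity was plain from the markers, with a summed level of Slc34a1, Lrp2, Cubn and Slc5a2, which mark the proximal tubule, between 21027 and 28525 normalized counts in every library. Rragc +/+ replicate 3, Rragc S74N/+ replicate 1 and Rragc S74N/+ replicate 2 stood apart from the rest in another way. Markers of the urothelium, the lining of the renal pelvis (Upk1a, Upk1b, Upk2, Upk3a and Krt5), summed to 248, 393 and 187 normalized counts in these 3 kidneys and to between 1.75 and 40.3 in the other 7, where each of the 5 markers was at 0 in at least 1 kidney. Aqp2, the water channel of the collecting duct, stood at 2145, 1594 and 1568 in the same 3 kidneys and at 317 to 714 in the others. With Aqp3, Hsd11b2, Scnn1g and Fxyd4 it summed to 3199, 2238 and 2644, against 957 to 1577 in the others. Aqp2 was the most abundant of these 5 markers, so neither value shows that the rest of them were higher in each of the 3 kidneys. These 3 kidneys are called urothelium-rich hereafter, as a description of their marker level, and results are given with and without them.

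Of the 10 genes, 3 rose in Rragc S74N/+ kidneys (Havcr1, Lcn2 and Cd44), none fell and 7 did not pass the threshold (limma on log2 of the normalized count plus 1, Benjamini-Hochberg adjusted p under 0.05 over 13236 genes). Across all tested genes 6.03% were called by the same criterion, 3.45% higher and 2.58% lower. The log2 fold change was above 0 in 8 of the 10 genes and in 6451 of all 13236 tested genes. Its median was 0.83 over the 10 genes, against -0.01 over all tested genes. An unadjusted limma p under 0.05 was found for 5 of the 10, beside 3360 of all 13236 tested genes. Of the 2 genes below 0, Spp1 turned its sign when libraries were scaled to equal totals. Genotype groups had no overlap, with Rragc S74N/+ above, for 2 of the 10 genes (Havcr1 and Cd44), against 4.15% of all tested genes. Read counts recovered from the table gave 3 calls with edgeR and 4 with DESeq2, which added Vim, where 6.3% and 10.2% of all tested genes were called in either direction. Without the 3 urothelium-rich kidneys 3 genes passed (Havcr1, Cd44 and Clu, the last of them lower), beside 5.17% of all tested genes. Without Rragc S74N/+ replicate 1 alone the calls were Havcr1, Lcn2 and Cd44, as with all kidneys.

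**Figure D1:**
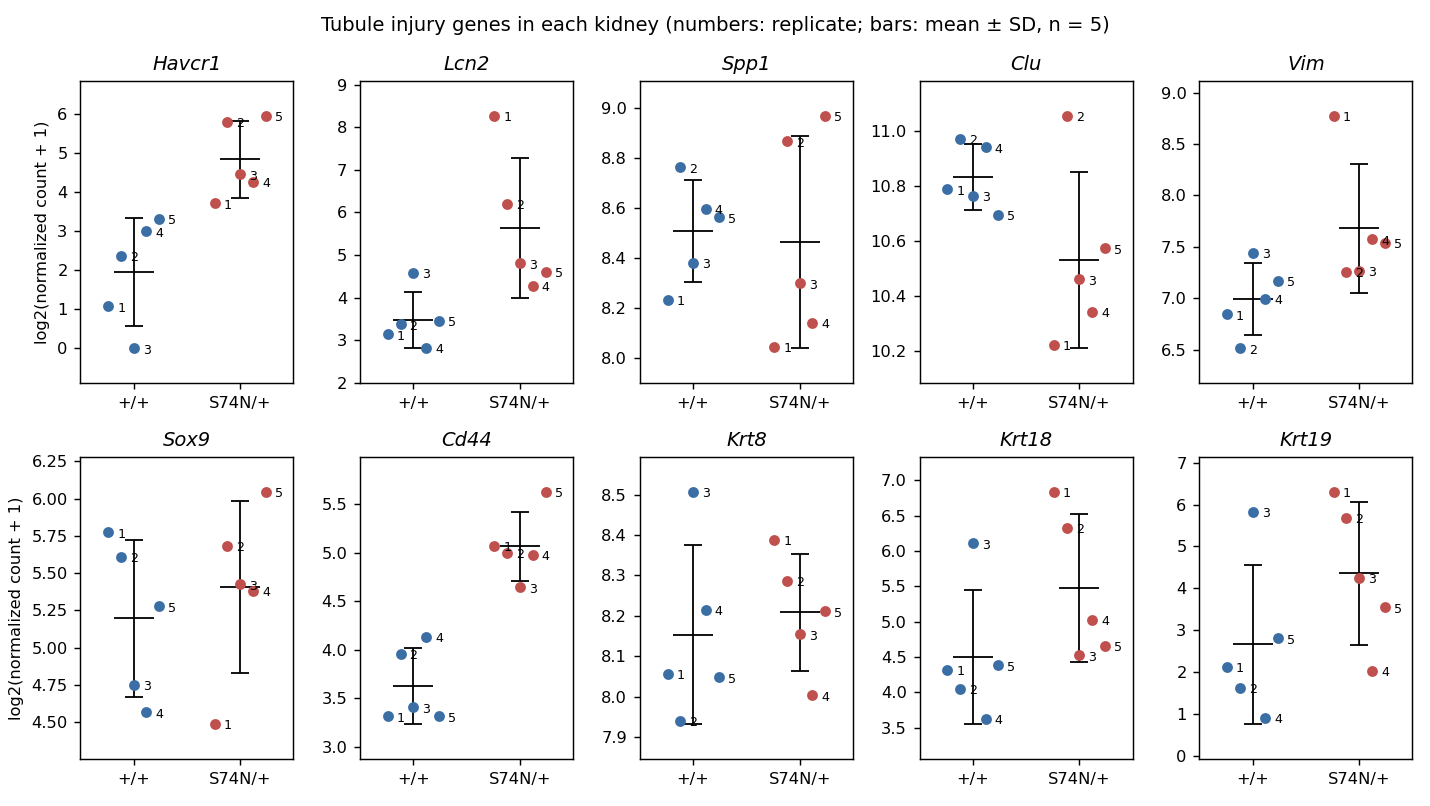
Level of each of the 10 tubule injury genes in each kidney, as log2(normalized count + 1) on the vertical axis, with each panel on its own scale. Points are single kidneys with their replicate number, and bars are the mean ± SD of 5 kidneys on this log2 scale. Havcr1 and Cd44 are the only panels in which all 5 Rragc S74N/+ points lie above all 5 Rragc +/+ points.

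The injury markers were taken first. Havcr1 encodes KIM-1, a surface receptor of injured proximal tubule cells that takes up apoptotic debris. It had 1.12, 4.16, 0, 6.99 and 8.95 normalized counts in Rragc +/+ replicates 1 to 5 and 12.1, 55.2, 21.0, 18.3 and 61.2 in Rragc S74N/+ replicates 1 to 5. The lowest mutant kidney thus lay above the highest wild-type kidney, and the mutant kidneys comprised 3 at 12.1 to 21.0 and 2 at 55.2 and 61.2. These levels rest on 0 to 9 reads in wild-type and 13 to 63 reads in mutant libraries, and the count of 0 in Rragc +/+ replicate 3 allows a level of up to 2.88 normalized counts (3 reads, counting error only). Its log2 fold change was 2.89 ± 0.62 (SE, limma adjusted p = 0.014), and 2.46 ± 0.57 without the urothelium-rich kidneys (adjusted p = 0.016). Without Rragc S74N/+ replicate 5 it was 2.61 ± 0.67 and did not pass (adjusted p = 0.051).

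Lcn2 encodes lipocalin 2, or NGAL, an iron-siderophore binding protein that the injured distal nephron, neutrophils and other epithelia secrete. Its level was 7.83, 9.36, 23.0, 6.11 and 9.95 normalized counts in Rragc +/+ replicates 1 to 5 and 307, 72.7, 27.0, 18.3 and 23.3 in Rragc S74N/+ replicates 1 to 5. A single mutant kidney, replicate 1, stood far above the others, and the groups overlapped because Rragc +/+ replicate 3 lay above Rragc S74N/+ replicate 4. The 3 urothelium-rich kidneys were the highest of their genotypes. These levels rest on 7 to 24 reads in wild-type and 18 to 329 reads in mutant libraries. For Lcn2 the log2 fold change was 2.15 ± 0.60 (SE, limma adjusted p = 0.045). Without Rragc S74N/+ replicate 1 it dropped to 1.49 and still passed (adjusted p = 0.033), and without all 3 urothelium-rich kidneys it was 1.36 ± 0.42 and did not pass (adjusted p = 0.058). With the urothelium marker sum as a covariate it was 2.08 ± 0.34 (adjusted p = 0.0023). The call was lost in 6 of the 10 fits that left out 1 kidney each, with adjusted p up to 0.11 over those fits.

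The 2 secreted proteins of the list that healthy tubules make in quantity gave no call. Spp1 encodes osteopontin, a phosphoprotein that binds integrins and CD44 and is made by the loop of Henle and distal tubule. It was measured at 299.8, 433, 332, 386 and 377 normalized counts in Rragc +/+ replicates 1 to 5 and at 263, 465, 314, 281 and 499 in Rragc S74N/+ replicates 1 to 5. Mutant kidneys lay on both sides of the wild-type range, with 2 below it, 2 above it and 1 inside it. Its log2 fold change was -0.04 ± 0.18 (SE, limma adjusted p = 0.91). Clu encodes clusterin, an extracellular chaperone, and was the most abundant of the 10 genes. Its level was 1765, 2006, 1738, 1962 and 1657 in Rragc +/+ replicates 1 to 5 and 1195, 2124, 1409, 1299 and 1523 in Rragc S74N/+ replicates 1 to 5. In mutant kidneys 4 of 5 values lay below all wild-type values, and replicate 2 lay above them all. For Clu the log2 fold change was -0.30 ± 0.14 (limma adjusted p = 0.19), -0.39 ± 0.11 without the urothelium-rich kidneys (adjusted p = 0.048) and -0.43 without Rragc S74N/+ replicate 2 alone (adjusted p = 0.045). Markers of the thick ascending limb (Umod, Slc12a1, Egf and Cldn16) summed to 10468 to 14515 normalized counts in wild-type and 4903 to 10622 in mutant kidneys. Of the 4 genes 2 were called lower, Umod and Egf, with log2 fold changes of -1.55 and -1.05. The other 2, Slc12a1 and Cldn16, had no call, at 0.04 and 0.44. The part of these markers in the values of Spp1 and Clu was not tested.

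Genes of dedifferentiation came next. Cd44 encodes the hyaluronan receptor, an adhesion molecule of leukocytes that is also raised on injured tubules. It stood at 8.95, 14.6, 9.60, 16.6 and 8.95 normalized counts in Rragc +/+ replicates 1 to 5 and at 32.6, 31.0, 24.0, 30.6 and 48.6 in Rragc S74N/+ replicates 1 to 5. The groups were separate, and the mutant values lay close together apart from a higher replicate 5. The log2 fold change was 1.44 ± 0.28 (SE, limma adjusted p = 0.0089), 1.40 ± 0.38 without the urothelium-rich kidneys (adjusted p = 0.034), and the call held in each fit that left out 1 kidney (adjusted p of 0.0088 to 0.032).

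Vim encodes vimentin, the intermediate filament of mesenchymal cells that dedifferentiated tubule cells regain. Its level was 114, 90.5, 172.8, 127 and 143 normalized counts in Rragc +/+ replicates 1 to 5 and 436, 152, 153, 189 and 186 in Rragc S74N/+ replicates 1 to 5. Mutant replicate 1 was far above the rest, and Rragc +/+ replicate 3 exceeded 2 mutant kidneys. The log2 fold change of Vim was 0.69 ± 0.25 (limma adjusted p = 0.11), 0.42 without Rragc S74N/+ replicate 1 (adjusted p = 0.14) and 0.58 ± 0.18 without the urothelium-rich kidneys (adjusted p = 0.062). DESeq2 on recovered reads called it (adjusted p = 0.046). Sox9 encodes a transcription factor that tubule cells switch on as they proliferate after injury. It had 53.7, 47.9, 25.9, 22.7 and 37.8 normalized counts in Rragc +/+ replicates 1 to 5 and 21.4, 50.4, 42.0, 40.7 and 65.1 in Rragc S74N/+ replicates 1 to 5. The ranges coincided for the most part, with the lowest value of all in mutant replicate 1 and the highest in mutant replicate 5. Sox9 had a log2 fold change of 0.21 ± 0.30 (limma adjusted p = 0.70).

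Markers of leukocytes and fibroblasts were summed beside these genes, and some of each list were called higher in the mutant kidneys. The 7 leukocyte markers (Ptprc, Laptm5, Coro1a, Cd52, Cd53, Rac2 and Arhgdib) summed to 305 to 398 normalized counts in wild-type and 492 to 748 in mutant kidneys, with 3 of 7 called higher, and of them Cd53 was at 0 in 1 mutant kidney. The 8 macrophage markers summed to 589 to 766 against 894 to 1212 (2 of 8 called higher) and the 3 neutrophil markers that were measured to 21.1 to 38.0 against 43.0 to 83.0 (1 of 3). The 7 fibroblast markers, collagens and platelet-derived growth factor receptors among them, summed to 809.5 to 1415 against 1314 to 2202 (3 of 7), with overlap. Markers without a call included some with log2 fold changes below 0, at -0.01 for Cd53, -0.48 for C1qc, -0.34 for Cd68 and -0.13 for Pdgfrb. The sums of the 3 leukocyte lists did not overlap between the genotypes, and their part in the rise of Cd44 and Lcn2 and in the values of Vim was not tested.

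**Figure D2:**
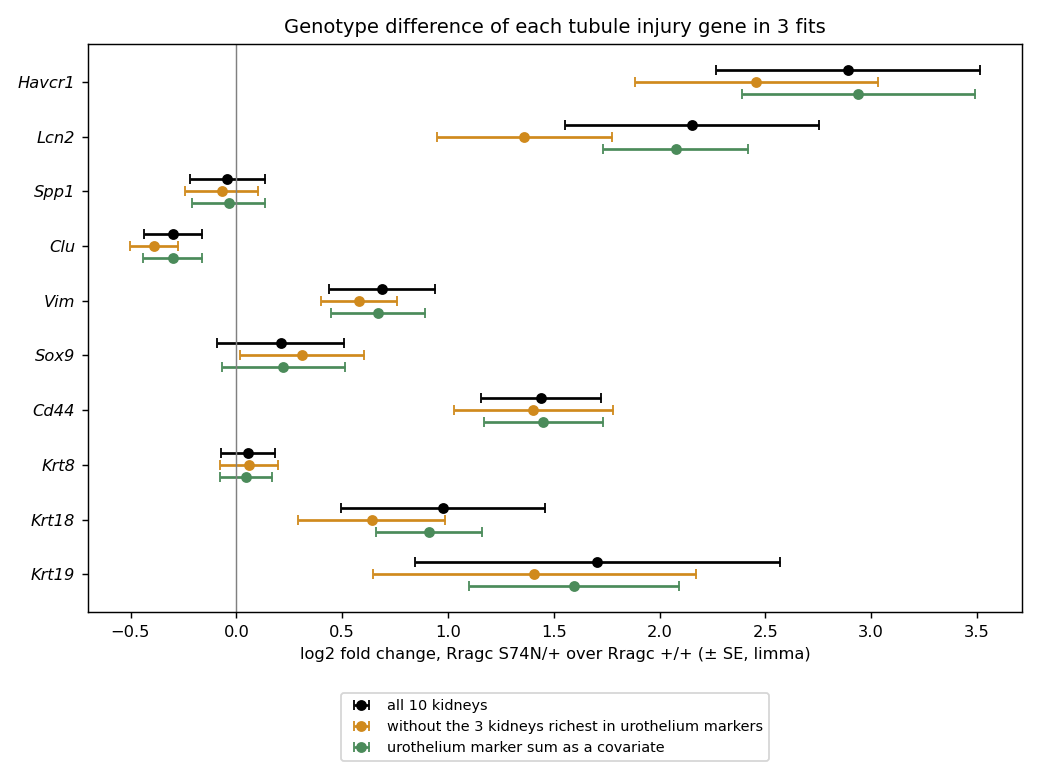
Log2 fold change of each of the 10 genes in Rragc S74N/+ over Rragc +/+ kidneys with its SE (horizontal bars), from limma on all 10 kidneys (black), on the 7 kidneys left without the urothelium-rich ones (orange) and on all 10 with the urothelium marker sum as a covariate (green). Lcn2 is at 2.15 with all kidneys and at 1.36 without the urothelium-rich kidneys, while Cd44 stays between 1.40 and 1.45 in the 3 fits.

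The keratins were examined last. Keratin 8 is a type II keratin and pairs with keratin 18 of type I in the filaments of simple epithelia, and keratin 19 is a type I keratin without a tail domain that ducts and urothelium express. None of the 3 passed the threshold in limma, edgeR or DESeq2, and none had an unadjusted p under 0.05. Krt8 had 265, 244, 363, 296 and 264 normalized counts in Rragc +/+ replicates 1 to 5 and 334, 311, 284, 256 and 295 in Rragc S74N/+ replicates 1 to 5. The mutant range lay inside the wild-type range, and the log2 fold change was 0.06 ± 0.13 (SE, limma adjusted p = 0.83). A processed pseudogene, Krt8-ps, exists, so the level of Krt8 is uncertain where reads fit both.

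Krt18 had 19.0, 15.6, 68.2, 11.4 and 19.9 normalized counts in Rragc +/+ replicates 1 to 5 and 114, 79.5, 22, 31.6 and 24.3 in Rragc S74N/+ replicates 1 to 5. Krt19 had 3.36, 2.08, 55.7, 0.873 and 5.97 in Rragc +/+ replicates 1 to 5 and 78.3, 50.4, 18, 3.06 and 10.7 in Rragc S74N/+ replicates 1 to 5. For both genes the 3 highest kidneys of the study were the urothelium-rich ones, in which Krt19 stood at 19.95% to 26.9% of the urothelium marker sum. In the other 7, where that sum was only 1.75 to 40.3 normalized counts, Krt19 stood at 8.33% to 550% of it. Krt18 had a log2 fold change of 0.98 ± 0.48 with all kidneys (limma adjusted p = 0.22) and 0.64 ± 0.35 without those 3 (adjusted p = 0.29). For Krt19 it was 1.71 ± 0.86 (adjusted p = 0.23) and 1.41 ± 0.76 (adjusted p = 0.29). A single kidney moved these values in either direction, since without Rragc +/+ replicate 3 alone Krt18 stood at 1.38 (adjusted p = 0.080) and Krt19 at 2.50 (adjusted p = 0.064), and without Rragc S74N/+ replicate 1 alone they stood at 0.63 (adjusted p = 0.39) and 1.22 (adjusted p = 0.38). With the urothelium marker sum as a covariate, Krt18 passed at 0.91 ± 0.25 (limma adjusted p = 0.036), and Krt19 did not at 1.59 ± 0.50 (adjusted p = 0.058). The percentage of all tested genes called in that fit was 7.7%.

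**Figure D3:**
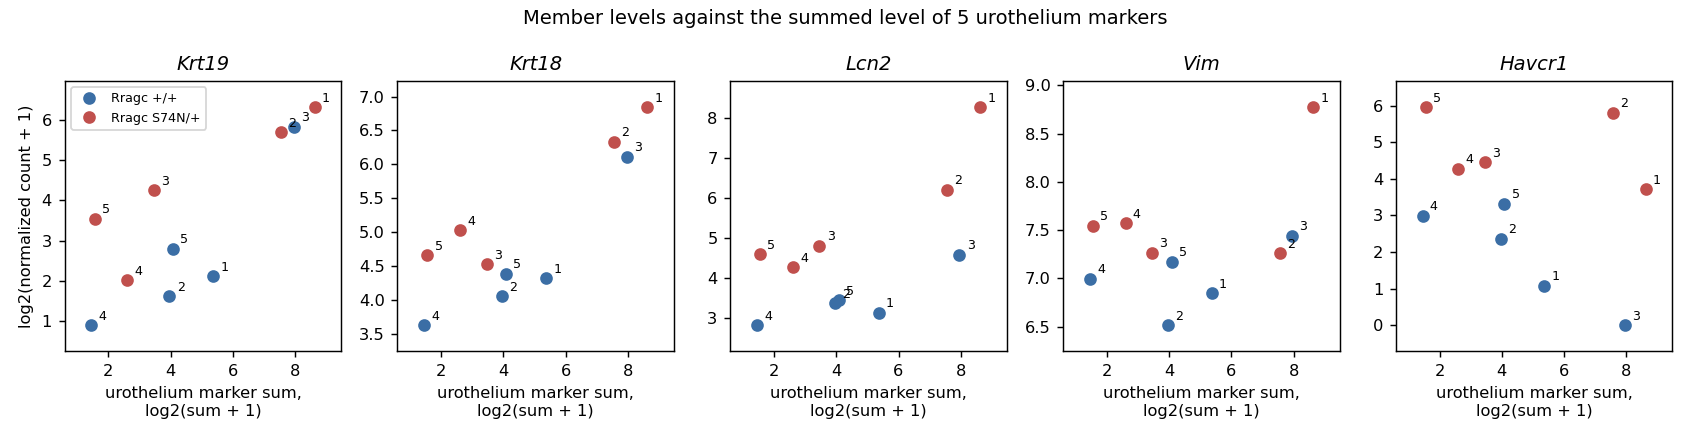
Levels of Krt19, Krt18, Lcn2, Vim and Havcr1 (vertical axes, log2(normalized count + 1), each panel on its own scale) against the summed level of 5 urothelium markers in the same kidney (horizontal axes, log2(sum + 1)), with 1 point per kidney and its replicate number. Rragc +/+ replicate 3 and Rragc S74N/+ replicates 1 and 2 form the right-hand set of points and hold the 3 highest Krt18 and Krt19 levels, whereas the highest Havcr1 level, 61.2 normalized counts, lies at the left.

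The balance of the keratin pair does not depend on scaling between libraries. Krt8 made up 93.3%, 94.0%, 84.2%, 96.3% and 93.0% of the Krt8 and Krt18 reads in Rragc +/+ replicates 1 to 5 and 74.6%, 79.7%, 92.8%, 89.0% and 92.4% in Rragc S74N/+ replicates 1 to 5. The share was lowest in the 3 urothelium-rich kidneys. Its mean was 92.2% ± 4.64 (SD, n = 5) in wild-type and 85.7% ± 8.16 (SD, n = 5) in mutant kidneys, a difference of -6.47 percentage points that did not pass an exact two-sided permutation test (p = 0.17, smallest possible p 0.0079). Without the urothelium-rich kidneys, which leaves out the 3 lowest shares, the difference was -2.74 points, given as a description.

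Promoters are shown for the 3 genes that rose, for the divergent keratin pair and for Vim, as the 250 bases before the start site in RefSeq for build GRCm38.p6 (the authors counted on GRCm39, and no coordinate was carried between the builds). RefSeq gave a promoter for 7 of the 10 genes, with 10 start sites in all, and of the 3 starts of Havcr1 the first along the chromosome is printed. Letters are lower case, 5′ to 3′ on the strand of the gene, and capitals mark a match to a searched motif.
Havcr1 promoter, chr11:46739973-46740222, plus strand: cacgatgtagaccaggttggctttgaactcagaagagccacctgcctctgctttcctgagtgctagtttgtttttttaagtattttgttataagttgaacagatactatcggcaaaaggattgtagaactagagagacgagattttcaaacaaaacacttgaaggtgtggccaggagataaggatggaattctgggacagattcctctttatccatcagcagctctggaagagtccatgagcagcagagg
Lcn2 promoter, chr2:32387740-32387989, minus strand: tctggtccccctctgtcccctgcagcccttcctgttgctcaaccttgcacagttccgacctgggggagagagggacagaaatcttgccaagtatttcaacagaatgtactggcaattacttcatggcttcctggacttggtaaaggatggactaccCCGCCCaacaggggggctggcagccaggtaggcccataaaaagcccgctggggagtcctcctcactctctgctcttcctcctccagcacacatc
Cd44 promoter, chr2:102901666-102901915, minus strand: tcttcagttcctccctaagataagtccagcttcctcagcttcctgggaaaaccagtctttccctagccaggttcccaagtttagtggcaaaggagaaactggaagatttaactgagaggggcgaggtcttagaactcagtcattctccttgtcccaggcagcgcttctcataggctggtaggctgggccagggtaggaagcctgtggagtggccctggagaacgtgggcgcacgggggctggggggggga
Krt8 promoter, chr15:102004343-102004592, minus strand: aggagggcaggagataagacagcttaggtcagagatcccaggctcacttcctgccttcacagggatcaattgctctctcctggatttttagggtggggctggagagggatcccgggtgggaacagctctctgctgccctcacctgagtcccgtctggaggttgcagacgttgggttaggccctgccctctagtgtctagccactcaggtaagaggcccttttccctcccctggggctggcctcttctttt
Krt18 promoter, chr15:102027966-102028215, plus strand: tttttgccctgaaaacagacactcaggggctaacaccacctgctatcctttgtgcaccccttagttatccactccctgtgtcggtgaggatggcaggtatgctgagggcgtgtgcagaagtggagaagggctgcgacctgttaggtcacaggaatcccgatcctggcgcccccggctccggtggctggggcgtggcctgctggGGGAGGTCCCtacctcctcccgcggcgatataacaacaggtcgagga
Vim promoter, chr2:13574061-13574310, plus strand: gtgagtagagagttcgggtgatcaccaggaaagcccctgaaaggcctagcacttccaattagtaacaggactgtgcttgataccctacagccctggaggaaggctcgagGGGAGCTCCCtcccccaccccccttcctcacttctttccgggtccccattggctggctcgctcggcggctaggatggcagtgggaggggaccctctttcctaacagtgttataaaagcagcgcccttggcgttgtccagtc
In the Lcn2 window the capitals are a GC box on the other strand (GGGCGG, both strands searched, present in 32.7% of 32851 mouse promoter windows of the same length). In Krt18 and Vim they are a match to the kappa B motif (both strands, 17.6% of windows, 2 of the 10 windows of the injury genes). The letters of AP-1 (TGANTCA, 6.75% of windows), STAT (TTCNNNGAA, 7.02%) and the E-box CACGTG (6.02%) were in none of the 10 windows. These are matches of letters in the reference and not measured binding. The start sites of Krt8 and Krt18 lie 23874 bases apart on chromosome 15 and point away from each other, and the 2 genes nonetheless had different spreads, from 244 to 363 normalized counts for Krt8 and from 11.4 to 114 for Krt18 over all kidneys.

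Whether the same kidneys were high in all 10 genes was asked within each genotype, by ranking the 5 kidneys for each gene. They were not. Rragc S74N/+ replicate 1 was the highest mutant kidney for 5 genes (Lcn2, Vim, Krt8, Krt18 and Krt19) and the lowest for 4 (Havcr1, Spp1, Clu and Sox9). Rragc S74N/+ replicate 5 was the highest for 4 others (Havcr1, Spp1, Sox9 and Cd44) and the lowest for none. Replicates 3 and 4 were highest for no gene, and replicate 2 for Clu. The mean rank over the 10 genes, counted from 1 for the highest, was 2.7, 2.3, 3.6, 4.0 and 2.4 in mutant replicates 1 to 5. Among wild-type kidneys, replicate 3 was the highest for 5 genes, the same 5 that were highest in mutant replicate 1, and the lowest for Havcr1. Mean ranks there were 3.5, 3.0, 2.5, 3.2 and 2.8 in replicates 1 to 5. Kendall's W, which is 1 for the same order in every gene and averages 0.1 over unrelated orders of 10 genes, was 0.23 over the mutant and 0.058 over the wild-type kidneys, given as a description with no test.

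**Figure D4:**
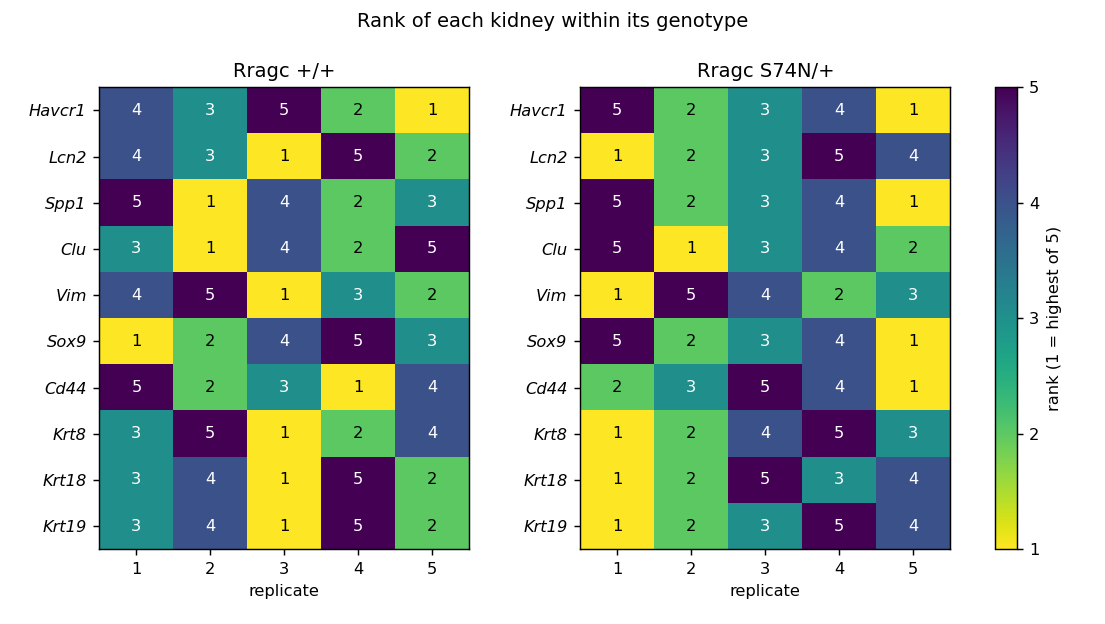
Rank of each kidney (columns, replicate number) within its genotype for each of the 10 genes (rows), from 1 for the highest level to 5 for the lowest, with Rragc +/+ on the left and Rragc S74N/+ on the right. In the mutant kidneys, replicate 1 ranks 1 for Lcn2, Vim and the 3 keratins and 5 for Havcr1, Spp1, Clu and Sox9.

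The 10 genes therefore held at least 2 orders of mutant kidneys. Havcr1, Spp1 and Sox9 ranked the 5 kidneys in 1 and the same order (replicates 5, 2, 3, 4 and 1 from the highest), and Clu differed from it only in the exchange of replicates 2 and 5. Lcn2 and Krt19 shared a second order, with replicates 1, 2, 3, 5 and 4. In wild-type kidneys Havcr1, Spp1 and Sox9 did not share an order, since their highest kidneys were replicates 5, 2 and 1. Krt18 and Krt19 had a common order in wild-type kidneys, from replicate 3 to replicate 4. The mean deviation of the 10 genes within genotype, on the log2 scale, was highest in the 3 urothelium-rich kidneys. It was 0.39 in Rragc +/+ replicate 3 and 0.45 in both Rragc S74N/+ replicate 1 and Rragc S74N/+ replicate 2. The genes outside the list whose deviations within genotype were most like the mean deviation of the 10 genes were Ptp4a2 (Pearson r = 0.95), Cd52 (0.93), S100a6 (0.92), Dusp7 (0.92) and Rhoj (0.90), over 10 kidneys and 7737 genes ranked. These values describe points that share libraries, and of the 5 genes only Cd52 passed the threshold between genotypes (log2 fold change 0.87 ± 0.22, limma adjusted p = 0.031).

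Other genes of tubule injury and of the pathways around these 10 were then counted, from 5 lists with 79 distinct tested genes. Of the 79, 10 rose, 2 fell and 67 did not pass (limma), beside 3.45% higher and 2.58% lower over all tested genes. Their median log2 fold change was 0.18, against -0.01 over all tested genes. Without the urothelium-rich kidneys 15 of the 79 passed, 13 higher and 2 lower, beside 5.17% of all tested genes in either direction. For the list counts that follow, the shares of all tested genes called in either direction were 6.03% in limma, 6.3% in edgeR and 10.2% in DESeq2. The early stress response list, transcription factors and targets such as Fos, Jun and Hmox1, held no call among 10 tested genes in limma or edgeR and 1 in DESeq2. An unadjusted limma p under 0.05 was found for 3 of the 10, beside 3360 of all 13236 tested genes. Gdf15, a stress cytokine and the highest of the list in level, lay at 119.6 to 293 normalized counts in wild-type and 209 to 439 in mutant kidneys, with overlap (log2 fold change 0.74 ± 0.24, limma adjusted p = 0.076).

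Of 18 other injury proteins, 3 rose and none fell (edgeR called 3 and DESeq2 5 in either direction). C3, the central complement protein that injured tubules synthesize, had 72.7, 57.2, 132, 59.4 and 124 normalized counts in Rragc +/+ replicates 1 to 5 and 778, 406, 170, 298 and 413 in Rragc S74N/+ replicates 1 to 5. The groups were separate, with mutant replicate 1 the highest as for Lcn2 (log2 fold change 2.12 ± 0.33, limma adjusted p = 0.0017). Cp, which encodes the copper ferroxidase ceruloplasmin, rose from between 129 and 213 to between 301 and 408 (log2 fold change 1.03 ± 0.15, limma adjusted p = 0.00096). Vcam1, an adhesion molecule that tubule cells in failed repair display, rose with overlap from between 63.4 and 105 to between 93.3 and 279 (1.12 ± 0.26, limma adjusted p = 0.020), and its highest kidneys were mutant replicates 2 and 5, the highest for Havcr1 as well. Its call was lost in 3 of the 10 fits that left out 1 kidney, and those of C3 and Cp in none. Wfdc2, the most abundant gene of the list, did not pass (0.24 ± 0.18, limma adjusted p = 0.44).

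Cytoskeletal genes and annexins gave 3 rises of 15 tested. They were Anxa3 (log2 fold change 0.91 ± 0.19, limma adjusted p = 0.011) and Anxa2 (0.76 ± 0.20, adjusted p = 0.034), both calcium-dependent membrane binding proteins, and Flna, the actin crosslinker filamin A (0.81 ± 0.14, adjusted p = 0.0033). Rragc S74N/+ replicate 1 was the highest kidney for all 3, at 81.1, 691 and 836 normalized counts, as it was for Vim. The call of Anxa2 was lost in 6 of the 10 fits that left out 1 kidney, and those of Anxa3 and Flna in none. Tagln2, the most abundant gene without a call, gave 0.27 ± 0.13 (adjusted p = 0.21).

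Receptors, ligands and linkers of the 10 genes' products gave 4 rises of 19 tested. Itga4, a subunit of the α4 integrins of leukocytes that bind osteopontin and VCAM1, had a log2 fold change of 1.29 ± 0.31 (limma adjusted p = 0.026), and its call was lost in 5 of the 10 fits that left out 1 kidney. Hyal1, a lysosomal hyaluronidase that degrades the ligand of CD44, gave 1.05 ± 0.30 (adjusted p = 0.047). Its call was lost in 8 of the 10 fits that left out 1 kidney and without the urothelium-rich kidneys (0.84, adjusted p = 0.14). Of the 5 desmosomal and linker genes of keratin filaments in the list, 2 rose, namely Pkp2, the desmosomal plakophilin 2 (0.99 ± 0.21, adjusted p = 0.013), and Plec, the linker plectin (0.57 ± 0.12, adjusted p = 0.013). The other 3 did not pass, with log2 fold changes of 0.65 for Dsp (adjusted p = 0.11), 0.59 for Dsg2 (0.058) and -0.42 for Jup (0.18). The genotypes did not overlap for Pkp2 or Plec, and both calls held in each fit that left out 1 kidney. Lrp2, megalin, which takes up lipocalin 2, gave 0.19 ± 0.14 (adjusted p = 0.42).

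Genes of the differentiated proximal tubule were counted beside the injury genes, and 2 of 18 fell. Slc5a2, the glucose cotransporter SGLT2, stood at 791, 906, 810.2, 881 and 835 normalized counts in Rragc +/+ replicates 1 to 5 and at 331, 458, 435, 319.8 and 532 in Rragc S74N/+ replicates 1 to 5 (log2 fold change -1.05 ± 0.14, limma adjusted p = 0.00048). Gatm, the mitochondrial enzyme of creatine synthesis, stood at 882, 1007, 780.4, 857 and 722 and at 422, 379, 376, 572 and 346 in the same order (-1.03 ± 0.14, adjusted p = 0.00062). Every mutant kidney lay below every wild-type kidney for both. The order of the mutant kidneys for Slc5a2 was not the reverse of that for Havcr1, because replicate 5 was the highest of them for both genes. The other 16 genes did not pass, among them Slc34a1, the phosphate cotransporter and the most abundant (-0.17 ± 0.12, adjusted p = 0.40), and the median log2 fold change of the 18 was -0.15.

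**Figure D5:**
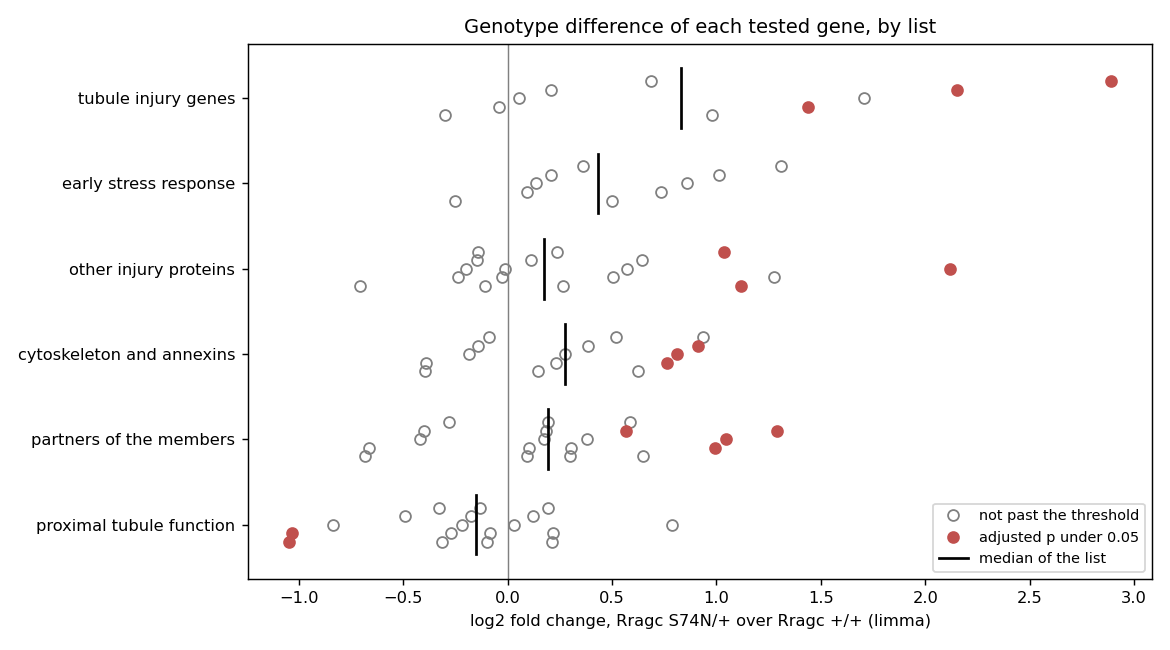
Log2 fold change in Rragc S74N/+ over Rragc +/+ kidneys (horizontal axis, limma) of every tested gene of the tubule injury genes and of the 5 further lists, with 1 point per gene, filled where the adjusted p was under 0.05. Black lines are list medians, from 0.83 for the 10 tubule injury genes to -0.15 for proximal tubule function, and vertical offsets within a list only part the points.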

How the data were processed

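Kidney RNA of 10 mice was sequenced from the 3′ end (QuantSeq, single reads in sense orientation) from 300 ng of RNA with quality scores of 6.2 to 7 (mean 6.7), per the labels. Per the methods of the study and its processing notes, the authors checked reads with FastQC 0.11.7, aligned them to GRCm39 with TopHat2 2.0.10, Bowtie 1.0.0 and SAMtools 0.1.19, and counted them per gene and strand with HTSeq 0.6.1. The values the authors deposited are signal values, namely counts divided by a size factor for each library, with 1 value per gene symbol. Every value in all 10 libraries was a whole multiple of the step of its library within 1e-06 of a read, so reads were recovered for depth and for the count models.

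Genes with at least 5 normalized counts in at least 5 libraries were tested (13236 genes, 63 removed) with limma 3.58.1 in R 4.3.3 on log2(value + 1), which understates the change of low genes, with genotype as the only term, eBayes with a variance trend, two-sided, Benjamini-Hochberg adjustment over all tested genes and a threshold of 0.05. The alternatives were edgeR 4.0.16 (quasi-likelihood) and DESeq2 1.42.0 on recovered reads, other pseudocounts, filters, scalings and variance models, a block for title numbers under or over 200, and each kidney left out in turn. Fits without the urothelium-rich kidneys or with their marker sum as a covariate were chosen after seeing the data. Fits were tested on simulated data. The 10 genes and all lists were chosen with earlier results of these data known. All 10 are named, with up to 4 called genes of largest fold change and the uncalled gene of highest level from each further list. Genes of those lists that were not in the table were not analysed here. Promoter windows came from RefSeq, and protein sequences were not used here.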

Additional observations from a re-analysis of the deposited data

Results flagged for a closer look

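In each genotype the highest or lowest of the 5 kidneys was compared with the rest for the 10 genes and the Krt8 share, and a kidney was singled out where its gap to the nearest other exceeded 0.71 of the range of the group. Of 22 groups searched, 6 held such a kidney. That gap is exceeded in about 1 in 20 groups of independent normal values, or 1.1 of 22. The groups here share libraries, Krt18 enters the Krt8 share, and normalized counts were searched in place of their log2. The 6 are therefore a description and cannot be set against that figure. All 6 fell on Rragc +/+ replicate 3 or Rragc S74N/+ replicate 1, which are urothelium-rich kidneys. Rragc +/+ replicate 3 had 23.0 normalized counts of Lcn2 where the other wild-type kidneys had 6.11 to 9.95. It had 68.2 of Krt18 against 11.4 to 19.9, and 55.7 of Krt19 against 0.873 to 5.97. Its Krt8 share was 84.2% against 93.0% to 96.3%. Rragc S74N/+ replicate 1 had 307 normalized counts of Lcn2 where the other mutant kidneys had 18.3 to 72.7, and 436 of Vim against 152 to 189. The part of the urothelium in these levels was not tested.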

How the results depend on the processing

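The fits within each range of title numbers, given below, are left out of the counts that follow. Cd44 kept its call in all 23 other alternatives in which it was tested, with a log2 fold change of 1.19 to 1.57. Havcr1 kept it in 21 of 23, and Lcn2 in 12 of 24 (1.36 to 3.00). The number of the 10 genes called was 0 of 5 tested with a minimum mean of 50 normalized counts, which leaves out Havcr1 and Cd44, 1 at an adjusted p under 0.01 and between 1 and 3 with 1 kidney left out, the 1 without Rragc S74N/+ replicate 5. Spp1, at -0.04, turned to 0.035 with equal library totals and 0.0041 with edgeR, and ranged from -0.17 to 0.061 with 1 kidney left out, above 0 in 3 of those fits. Over all genes, 798 calls became 391 without a variance trend, 1354 with DESeq2, 187 at an adjusted p under 0.01 and 311 to 902 with 1 kidney left out. The wider lists went from 12 calls to 5 at an adjusted p under 0.01. The Krt8 difference ranged from -8.46 to -3.69 points with 1 kidney left out, and passed without Rragc +/+ replicate 3 (exact permutation p = 0.048). Without the urothelium-rich kidneys it was -2.74. That value is a description only, since those 3 kidneys were chosen after seeing the data and hold the 3 lowest shares. Kendall's W became 0.14 and 0.18 in wild-type and mutant kidneys over the 5 genes with a mean of at least 50, where unrelated orders average 0.2, and 0.066 and 0.26 with equal totals. With equal library totals the median over all tested genes was 0.06 on the log2 scale in place of -0.01. Beyond these fits, the causes were not tested. Fits within each range of title numbers gave Havcr1 at 3.51 under 200 (3 against 3 kidneys, limma adjusted p = 0.12) and 1.96 over 200 (2 against 2, 0.040), Lcn2 at 2.72 (0.15) and 1.30 (0.23), and Cd44 at 1.35 (0.15) and 1.58 (0.046). All 3 urothelium-rich kidneys had title numbers under 200, so these fits and those without the urothelium-rich kidneys are not separate checks. The fit of limma to the samples of the count models was the fit reported, since all 10 entered. No paired analysis was possible because the labels give no litter or other link between mice of the 2 genotypes. Low depth limits Havcr1, Cd44 and Krt19 most, at 0 to 84 reads per library, and Lcn2 in wild-type libraries, at 7 to 24 reads.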
